A study of Mus musculus with 6 samples.

Results

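The 9 genes described here encode proteins that place, remove or read methyl groups on DNA: the writers Dnmt1, Dnmt3a, Dnmt3b and their partner Uhrf1, the erasers Tet1, Tet2 and Tet3, and the readers Mbd1 and Mbd2. They were taken by gene symbol from a count table of 24060 mouse genes. The table came from retinal ganglion cells (RGCs), the neurons whose axons form the optic nerve, purified from C57BL/6 mice on embryonic day 18 (E18; replicates 1, 3 and 4) or postnatal day 5 (P5; replicates 6, 8 and 9). The study compared these ages because RGCs extend axons readily at E18 and have lost much of that ability by P5. All 6 samples were untreated and were purified by immunopanning: the retina was dissociated with papain, macrophages were removed on a coated plate, and the remaining cells were captured on an antibody against the surface protein Thy1. The column of E18 replicate 1 also carried the numbers 2 and 5 in its name, and no source said whether it was a pool. Nothing in the labels stated that the 3 samples of an age came from separate animals or litters, so the p-values below measure only the spread between these samples, which may be technical.

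Methylation of cytosine in CpG dinucleotides is set in place by DNMT3A and DNMT3B and is copied to the new strand after replication by DNMT1, which UHRF1 brings to half-methylated sites. The TET enzymes oxidise 5-methylcytosine to 5-hydroxymethylcytosine and further products, from which base excision repair can restore an unmodified cytosine. Neurons do not divide and accumulate both methylation outside CpG sites, written by DNMT3A, and 5-hydroxymethylcytosine. Methyl-CpG-binding domain proteins such as MBD1 and MBD2 bind methylated DNA, and MBD2 can bring the NuRD deacetylase and remodelling complex to it.

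Among the members whose promoter windows were examined, those of Dnmt1 and Uhrf1 held letters recognised by E2F, the family of factors that drives genes of DNA replication. The letters searched were TTTGGCGC, TTTCGCGC, TTTCCCGC and TTTGCCGC on both strands, in RefSeq windows (GRCm38.p6) that ran from 250 bases before to 50 bases after each listed start. Of the 7 members whose windows were examined, 2 held a match in any window, against 704 of all 27025 genes with a window (2.6%). Among the genes of dividing cells used below, 4 of the 14 with a window held a match. No share was taken among windows of similar CpG content. The stretches of 30 bases around each match in the members are printed below on the strand of the gene, with the matching letters in capitals.
Dnmt1, chr9:20952824-20952853, minus strand: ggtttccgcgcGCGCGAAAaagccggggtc
Dnmt1, chr9:20952574-20952603, minus strand: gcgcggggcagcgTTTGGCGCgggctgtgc
Uhrf1, chr17:56304117-56304146, plus strand: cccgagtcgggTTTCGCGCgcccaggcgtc
In the upper Dnmt1 stretch the capitals read TTTCGCGC on the opposite strand, and their first base lay 219 bases before the listed start at 20952623. The other Dnmt1 match began 33 bases after that start. Both Dnmt1 matches lay in exonic, non-coding sequence of the GENCODE annotation, whereas the Uhrf1 match lay 185 bases before the listed start at 56304313, outside its exons. These windows of Dnmt1 and Uhrf1 held 33 CpG dinucleotides each, against a median of 7 over all windows. The windows of Dnmt3a, Dnmt3b, Tet1, Tet2 and Tet3 held none of these letters, while that of Tet2 held 57 CpG dinucleotides. A match describes letters only, and binding of a factor was not measured.

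The libraries held 81213639 to 114512853 counted reads each. Within an age the counts of any pair of samples had a chi-square per degree of freedom of 30.5 to 141, so no sample repeated another. Summed levels of 15 RGC markers were high at both ages, at 11092 to 12663 CPM (counts per 1000000 counts of the scaled library) at E18 and 11049 to 11951 CPM at P5, and microglial markers did not exceed 2.66 CPM. Single RGC markers did change with age: 5 were higher at E18, 4 were lower and 6 did not pass. The log2 fold changes ran from -1.40 for Slc17a6 to 1.10 for Isl1. Markers of other cell types differed among the E18 samples. Summed levels of 12 progenitor markers were 182.0, 128.1 and 31.96 CPM in E18 replicates 1, 3 and 4 and 21.6 to 29.8 CPM at P5, and 16 genes of dividing cells summed to 454.8, 199.3 and 135.6 CPM at E18 and to 104.1 to 126.8 CPM at P5. Amacrine markers followed another order, with sums of 765.3, 961.0 and 639.3 CPM in E18 replicates 1, 3 and 4 and 528.2 to 654.3 CPM at P5. Most of each sum was Pax6 (661.0, 750.6 and 622.0 CPM at E18), which did not pass. Of the 10 markers, 5 were higher at E18 and 5 did not pass (median log2 fold change 2.4996). The 5 higher markers stood lower in E18 replicate 4 than in replicates 1 and 3. Tfap2b, for example, was at 47.5, 119.2 and 1.62 CPM at E18 and 1.02 to 1.55 CPM at P5. Endothelial and pericyte markers summed to 72.5, 64.4 and 16.4 CPM at E18 and 14.5 to 17.7 CPM at P5, mostly through Kdr. Of the 7 tested, only Kdr was higher at E18 (log2 fold change 2.68). Pecam1 (-1.81), Tek (-1.80) and Rgs5 (-4.36) were lower at E18, and 3 did not pass. The part of these other cell types in the results below was not tested. In bulk RNA of this kind, fewer cells of a type and less RNA per cell cannot be told apart.

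All 9 genes passed the filter on low counts, which 16449 genes of the table passed. By edgeR's quasi-likelihood test with Benjamini-Hochberg adjustment over those genes, 4 members were higher at E18 (Dnmt1, Dnmt3b, Uhrf1 and Tet3), 2 were lower at E18 (Dnmt3a and Mbd2) and 3 did not pass an adjusted p of 0.05 (Tet1, Tet2 and Mbd1). Among all tested genes 43.4% passed in either direction, 20.8% being higher at E18 and 22.5% lower. The values of the ages did not overlap for 7 members, all but Tet2 and Mbd1, and did not overlap for 56.1% of all tested genes. The median log2 fold change (E18 over P5) of the members was 0.18, against 0.00 for all tested genes.

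**Figure D1:**
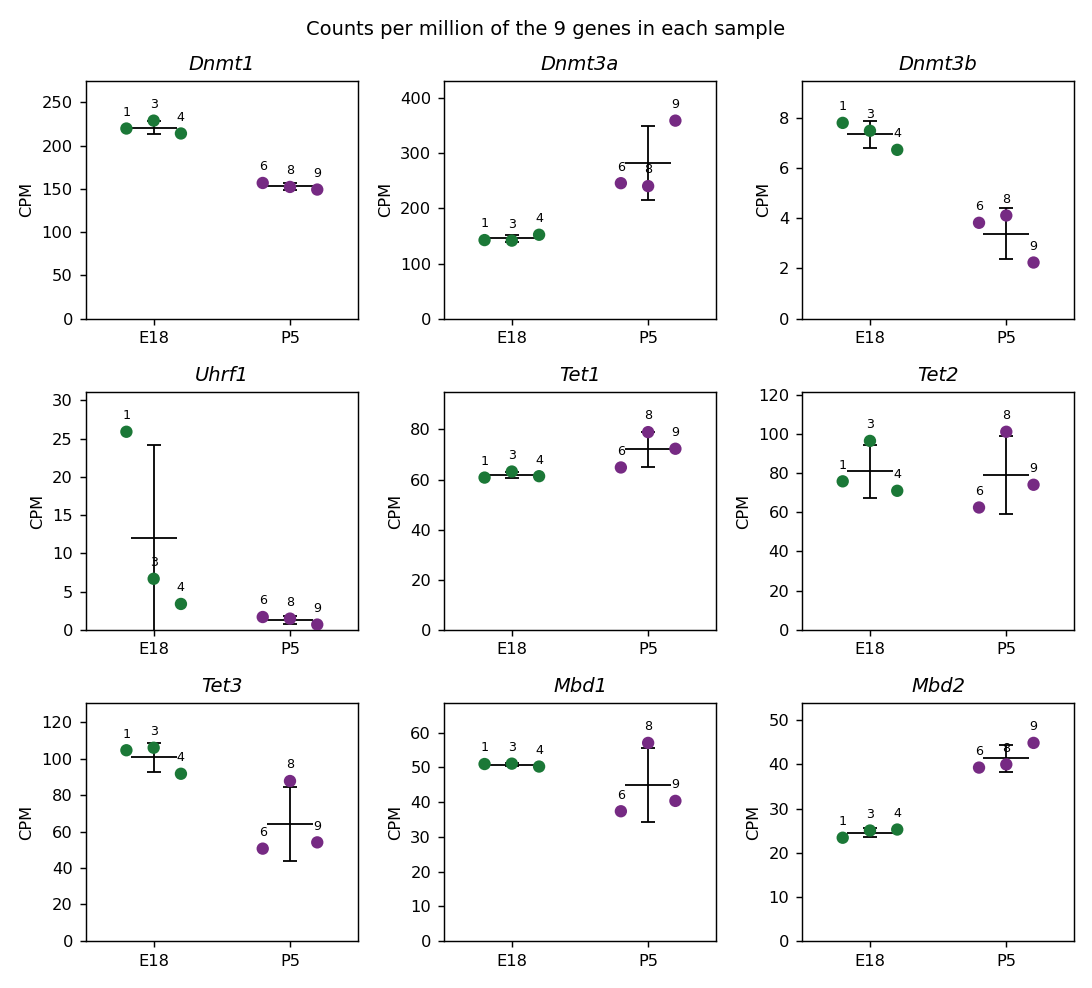
CPM (linear axes, from 0) of each of the 9 genes in E18 replicates 1, 3 and 4 (green) and P5 replicates 6, 8 and 9 (purple), with the mean (long line) and SD (capped bar) of each age. Dnmt1, Dnmt3b, Uhrf1 and Tet3 lie higher in every E18 sample, Dnmt3a, Mbd2 and Tet1 lie higher in every P5 sample, and Tet2 and Mbd1 overlap.

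Dnmt1, the maintenance methyltransferase (ENSMUSG00000004099.16, chr9:20907209-20959888, minus strand), had the most counts per kilobase of exon among the members at E18. Its level was 219.7, 228.8 and 213.9 CPM in E18 replicates 1, 3 and 4 and 156.8, 152.2 and 149.1 CPM in P5 replicates 6, 8 and 9. The samples of each age lay close together and the ages did not overlap. The fall from 220.8 ± 7.48 CPM at E18 to 152.7 ± 3.83 CPM at P5 (mean ± SD, n = 3) was 0.53 ± 0.0792 on the log2 scale (estimate ± standard error; adjusted p = 0.00137, edgeR). At P5 the mean was 0.692 times that at E18.

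Uhrf1, which directs DNMT1 to newly replicated DNA (ENSMUSG00000001228.14, chr17:56303321-56323486, plus strand), changed most on the log scale. It measured 25.9, 6.67 and 3.38 CPM in E18 replicates 1, 3 and 4 and 1.67, 1.46 and 0.680 CPM in P5 replicates 6, 8 and 9. Every E18 sample exceeded every P5 sample, but the E18 samples themselves spread over a 7.67-fold range and replicate 1 set much of the mean. The log2 fold change was 3.24 ± 0.716 (estimate ± its standard error, SE; adjusted p = 0.00745, edgeR), with a 95% confidence interval of 1.61 to 4.86. Without E18 replicate 1 it was 1.99 (adjusted p = 0.00932).

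The order of Uhrf1 among the E18 samples was also that of the genes of dividing cells. Relative to the P5 mean, Uhrf1 stood at 20.4, 5.25 and 2.66 in E18 replicates 1, 3 and 4, and the summed dividing-cell genes at 3.97, 1.74 and 1.18. At P5 most of that sum was Pcna (36.4 to 39.5 CPM) and Mcm6 (32.3 to 34.9 CPM), with log2 fold changes of only 0.57 and 0.58. The sum therefore does not show the size of change of each gene. Single genes ran from a log2 fold change of 0.47 for Mcm5 to 3.64 for Mki67, which was at 68.7, 16.2 and 2.84 CPM at E18 and 0.967 to 4.17 CPM at P5. Of those 16 genes, all tested, 11 were higher at E18 and none lower (edgeR), with a median log2 fold change of 1.39. That count turned on single samples: it was 5 without E18 replicate 1, with a median of 0.73, 2 without P5 replicate 9, and 0 without P5 replicate 6, where 8 had an unadjusted p under 0.05, and limma voom called 4. Dnmt1 did not share this spread: its E18 samples stood at 1.44, 1.498 and 1.40 times the P5 mean, a 1.07-fold range. The part of dividing cells or progenitors in the Uhrf1 difference was not tested.

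The log2 levels of Uhrf1 over the 6 samples were set against those of 9718 genes that averaged 10 CPM or more. The most alike were Pcna, the replication clamp (Pearson r = 0.9922), Ccnd1, a cyclin of the G1 phase (0.9907), and Hmgn2, a nucleosome-binding protein (0.9902). These correlations describe 6 samples of 2 ages, and an r over 0.95 was reached by 28 genes.

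**Figure D2:**
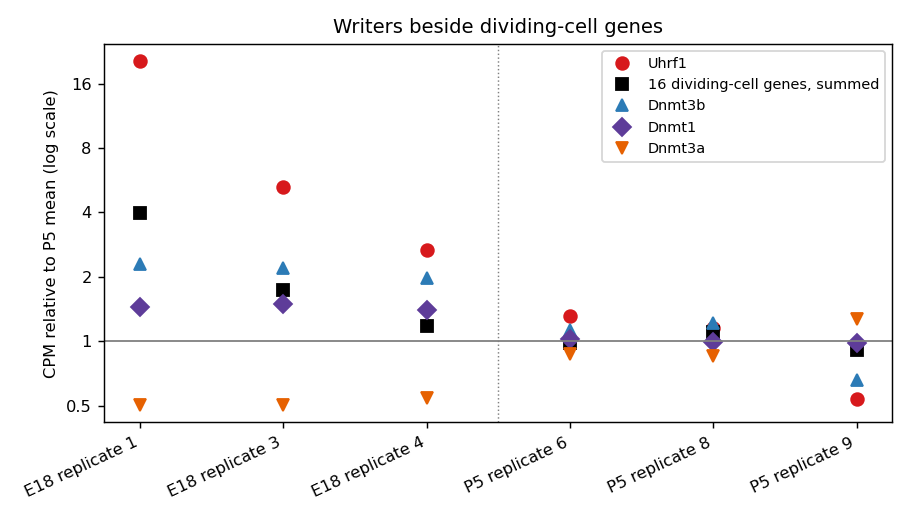
Levels of 4 writers and the summed level of 16 dividing-cell genes in each sample, as CPM relative to the P5 mean on a log axis; the horizontal line marks the P5 mean. Uhrf1 and the dividing-cell genes fall from E18 replicate 1 (20.4 and 3.97) to replicate 4 (2.66 and 1.18), while Dnmt1, Dnmt3b and Dnmt3a stay nearly level across the E18 samples. Most of the P5 sum is Pcna and Mcm6, so the summed level does not show the size of change of each dividing-cell gene.

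Dnmt3a, the de novo methyltransferase of neurons (ENSMUSG00000020661.15, chr12:3806007-3914443, plus strand), rose to P5. It was counted at 142.5, 141.5 and 152.2 CPM in E18 replicates 1, 3 and 4 and at 245.7, 240.4 and 359.2 CPM in P5 replicates 6, 8 and 9. The ages were well apart, and P5 replicate 9 stood above the other P5 samples. The P5 mean was 1.94 times the E18 mean, and the log2 fold change (E18 over P5) was -0.95 ± 0.153 (± SE; adjusted p = 0.00185, edgeR). The difference was -0.74 without P5 replicate 9. Exons of Dnmt3a share 133 bases, 0.799% of their length, with the antisense gene Dnmt3aos, and the strand setting of the counting was not given in the sources used here.

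The genes most like Dnmt3a over the 6 samples were Degs1, a desaturase of ceramide synthesis (Pearson r = 0.9988), Eml2, a microtubule-associated protein (0.9986), and Btbd6 (0.9984). A profile of this shape was common, since 878 of the 9718 genes compared reached an r over 0.95.

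Dnmt3b, the de novo methyltransferase used mostly in early embryonic cells (ENSMUSG00000027478.15, chr2:153649450-153687730, plus strand), moved the other way at a far lower level. It stood at 7.79, 7.47 and 6.71 CPM in E18 replicates 1, 3 and 4 and at 3.81, 4.10 and 2.23 CPM in P5 replicates 6, 8 and 9. The ages did not overlap, and the lowest sample was P5 replicate 9, the one with the most Dnmt3a. The log2 fold change was 1.11 ± 0.236 (± SE; adjusted p = 0.00616, edgeR), a 2.16-fold higher mean at E18. Its E18 samples differed by 1.16-fold, so that it too did not share the spread of the dividing-cell genes.

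The makeup of the methyltransferase family shifted with age. Per kilobase of exon, Dnmt1 fell from 29.9 ± 1.01 to 20.7 ± 0.520 CPM while Dnmt3a rose from 8.74 ± 0.354 to 16.9 ± 4.03 CPM, and Dnmt3b stood at 1.43 ± 0.108 and 0.663 ± 0.197 CPM (mean ± SD, n = 3). As a share of the 3 enzymes on this scale, Dnmt1 held 74.7%, 75.7% and 73.5% in the E18 samples and 57.8%, 57.5% and 47.9% in the P5 samples. Dnmt3a held 21.5%, 20.7% and 23.2% at E18 and 40.2%, 40.3% and 51.1% at P5. Within a sample, the ratio of Dnmt3a to Dnmt1 counts went from 0.649, 0.619 and 0.711 at E18 to 1.57, 1.58 and 2.41 at P5, with no overlap. Which enzyme led at P5 depended on the length used: with the longest annotated transcript in place of all exons, mean shares at P5 were 47.0% for Dnmt1 and 51.6% for Dnmt3a, against 69.2% and 27.6% at E18. The ratio of Dnmt3a to Dnmt3b counts was 18.299, 18.934 and 22.66 at E18 and 64.4, 58.6 and 161 at P5. The files count genes and not isoforms, so the forms of Dnmt3a and Dnmt3b were not told apart.

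**Figure D3:**
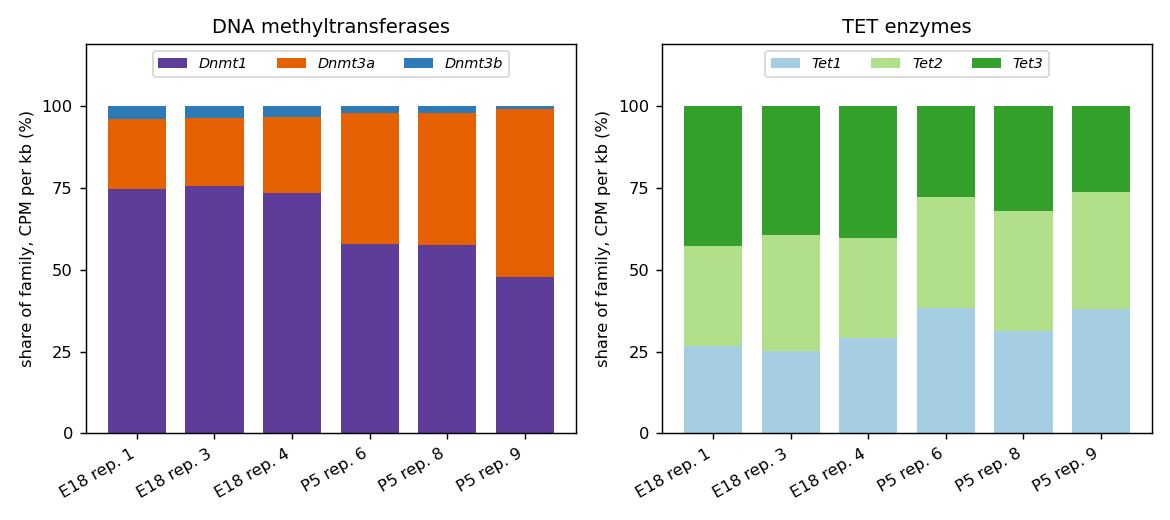
Share (%) of each enzyme in the summed CPM per kilobase of exon of its family, for the 3 DNA methyltransferases (left) and the 3 TET enzymes (right) in each of the 6 samples. Dnmt1 holds 73.5% to 75.7% at E18 and 47.9% to 57.8% at P5, and Tet3 goes from 39.3% to 42.6% at E18 to 26.3% to 32.1% at P5.

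Of the erasers, Tet3 was the single member to pass the test. This enzyme (ENSMUSG00000034832.15, chr6:83362373-83459084, minus strand), which oxidises the paternal genome after fertilisation and is also found in neurons, was measured at 104.6, 105.9 and 91.7 CPM in E18 replicates 1, 3 and 4 and at 50.6, 87.7 and 54.0 CPM in P5 replicates 6, 8 and 9. P5 replicate 8 came near the lowest E18 sample, but the ages did not overlap. The E18 mean was 1.57 times the P5 mean, with a log2 fold change of 0.65 ± 0.195 (± SE; adjusted p = 0.0262, edgeR). This call was not stable. It was lost without E18 replicate 1 (adjusted p = 0.0641), E18 replicate 3 (0.0771), P5 replicate 6 (0.0993) or P5 replicate 9 (0.0875), with log2 fold changes of 0.49 to 0.63, while without P5 replicate 8 the log2 fold change was 0.93 (adjusted p = 0.000474).

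Tet1 (ENSMUSG00000047146.17, chr10:62804570-62908996, minus strand), a TET enzyme with a CXXC domain that binds unmethylated CpG, was measured at 60.8, 63.2 and 61.3 CPM in E18 replicates 1, 3 and 4 and at 64.8, 78.9 and 72.3 CPM in P5 replicates 6, 8 and 9. Each P5 sample exceeded each E18 sample by a small margin. The log2 fold change of -0.22 ± 0.0971 (standard error) had a 95% confidence interval of -0.44 to -0.0009 and did not pass after adjustment (adjusted p = 0.0949, edgeR). Without P5 replicate 6 it was -0.31 (adjusted p = 0.0358).

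Tet2 (ENSMUSG00000040943.12, chr3:133463679-133545139, minus strand), which lacks a CXXC domain of its own, overlapped fully between the ages. Its level was 75.8, 96.5 and 71.0 CPM in E18 replicates 1, 3 and 4 and 62.5, 101.2 and 74.1 CPM in P5 replicates 6, 8 and 9. Replicate 3 was the highest sample at E18 and replicate 8 the highest at P5. The log2 fold change was 0.03 with a 95% confidence interval of -0.38 to 0.45 (adjusted p = 0.895, edgeR), so changes in either direction of up to about that size could not be detected here. Exons of Tet2 share 43 bases, 0.255% of their length, with an annotated antisense transcript.

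Relative to each other, the TET genes also shifted. Tet3 made up 42.6%, 39.3% and 40.2% of the family per kilobase of exon at E18 and 27.7%, 32.1% and 26.3% at P5, and Tet1 went from 26.8%, 25.3% and 29.0% to 38.4%, 31.2% and 38.0%. The ages did not overlap for either share. Tet2 held 30.6%, 35.4% and 30.8% at E18 and 33.9%, 36.7% and 35.7% at P5, which overlap. The shares within an age depended on the length used. With the longest annotated transcript, mean shares at P5 were 44.1% for Tet2, 29.8% for Tet3 and 26.2% for Tet1. At E18 they were 39.3%, 41.4% and 19.3%. The ratio of Tet3 to Tet1 counts within a sample was 1.72, 1.68 and 1.49 at E18 and 0.781, 1.11 and 0.748 at P5, P5 replicate 8 lying nearest to the E18 samples. The ratio of Tet3 to Tet2 counts was 1.38, 1.10 and 1.29 at E18 and 0.810, 0.867 and 0.729 at P5.

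Both readers lie on chromosome 18. Mbd2 (ENSMUSG00000024513.16, positions 70568189 to 70626131, plus strand), which binds methylated CpG and is a subunit of NuRD, rose to P5. It measured 23.39, 25.03 and 25.25 CPM in E18 replicates 1, 3 and 4 and 39.3, 40.0 and 44.9 CPM in P5 replicates 6, 8 and 9. The samples of each age lay close together, and the gap between the ages was wider than the spread within either. The P5 mean was 1.69 times the E18 mean, with a log2 fold change (E18 over P5) of -0.75 ± 0.0991 (± SE; adjusted p = 0.000848, edgeR), the lowest adjusted p of the 9 genes.

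Mbd1 (ENSMUSG00000024561.10, positions 74267605 to 74282732, plus strand), a methyl-CpG reader that also carries CXXC domains, was measured at 50.98, 51.1 and 50.3 CPM in E18 replicates 1, 3 and 4 and at 37.4, 57.1 and 40.4 CPM in P5 replicates 6, 8 and 9. The E18 samples were nearly identical, and at P5 replicate 8 lay above all E18 samples while the others lay below them. The log2 fold change was 0.18 ± 0.153 (± SE; adjusted p = 0.377, edgeR), with a 95% confidence interval of -0.17 to 0.52. Without P5 replicate 8 it was 0.37 (adjusted p = 0.00560), higher at E18. The ratio of Mbd2 to Mbd1 counts was 0.459, 0.490 and 0.502 at E18 and 1.05, 0.701 and 1.11 at P5, without overlap.

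Per kilobase of exon, the 9 genes could be ordered by level. Dnmt1 led at E18, followed by Dnmt3a (8.74 ± 0.354 CPM), Mbd2 (7.64 ± 0.316), Mbd1 (7.57 ± 0.0678), Tet3 (6.03 ± 0.471), Tet2 (4.81 ± 0.802), Tet1 (4.00 ± 0.0819), Uhrf1 (2.81 ± 2.86) and Dnmt3b (1.43 ± 0.108). Mbd2 and Mbd1 did not differ beyond their spread at E18, nor did Uhrf1 from its neighbours. At P5 Dnmt1 and Dnmt3a overlapped in spread (20.7 ± 0.520 and 16.9 ± 4.03 CPM), followed by Mbd2 (12.9 ± 0.948) and Mbd1 (6.70 ± 1.58). Tet2 (4.70 ± 1.18), Tet1 (4.66 ± 0.457) and Tet3 (3.84 ± 1.23) lay within their spread of each other, and Dnmt3b (0.663 ± 0.197) and Uhrf1 (0.298 ± 0.122) came last. Parts of this order depended on the length used. With the longest annotated transcript, Tet2 (8.63 ± 2.16 CPM) exceeded Tet1 (5.01 ± 0.491) in every P5 sample. At E18, the mean of Mbd1 (13.0 ± 0.116) was then above that of Mbd2 (12.6 ± 0.520), but they overlapped in spread. In E18 replicate 4 Mbd2 was the higher (12.93 against 12.82 CPM).

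**Figure D4:**
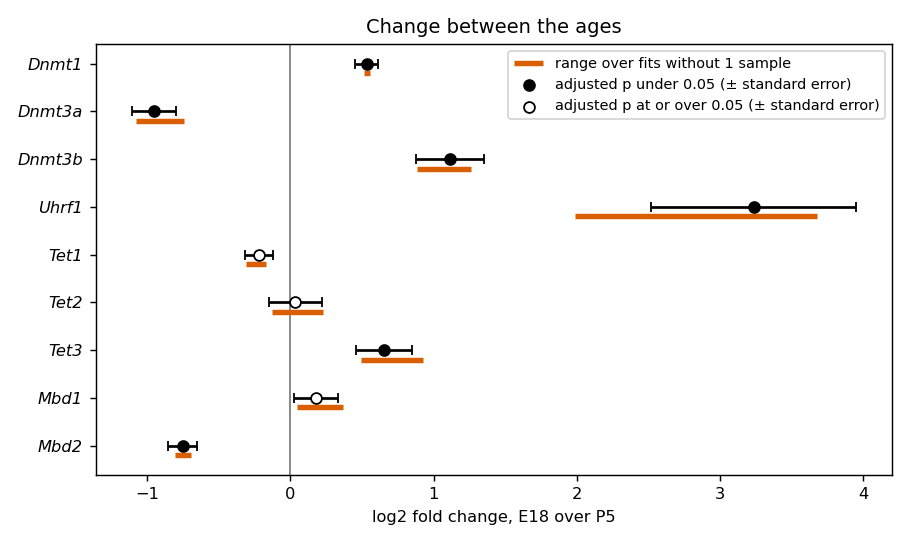
Log2 fold change (E18 over P5) of each gene with its standard error (black; filled where adjusted p is under 0.05) and, beneath it, the range of values when each of the 6 samples is left out in turn (orange). Uhrf1 is highest at 3.24 with a range of 1.99 to 3.68, Dnmt3a is lowest at -0.95, and the range of Tet2 crosses 0.

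Genes that act with the members were grouped by role, and the groups are described by their counts beside the 20.8% of all tested genes that were higher and the 22.5% that were lower at E18. Of 9 other genes from the families of methyl-CpG readers, not all of which prefer methylated DNA, 4 were higher at E18, 1 was lower and 4 did not pass, with a median log2 fold change of 0.20. The count of higher genes fell to 3 when any single sample other than P5 replicate 8 was left out. Uhrf2, the paralogue of Uhrf1, went from 154.6 to 82.2 CPM (log2 fold change 0.91, adjusted p = 0.00171, edgeR) and was the more abundant of the pair at both ages, at 17.998 ± 0.839 and 9.57 ± 1.90 CPM per kilobase of exon. Mbd6 was also higher at E18 (log2 fold change 1.22), as were Zbtb33, which encodes Kaiso (0.85), and Mbd3, the NuRD subunit related to MBD2 (0.31). Zbtb4, a zinc finger reader, went the other way, from 21.5 to 44.9 CPM (-1.06, adjusted p = 0.00156, edgeR).

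Of 8 CXXC-domain proteins, which bind unmethylated CpG, 3 were higher at E18, 1 was lower and 4 did not pass (median log2 fold change 0.25). The higher genes were Fbxl19 (0.75), Kmt2b (0.70) and Kmt2a (0.51), the latter pair being histone H3 lysine methyltransferases, and the lower gene was Cxxc4 (-0.26; lost in 5 of the 6 fits with a sample left out). Of 11 partners of the writers, 9 passed the filter and Dnmt3l and Dppa3 did not. Of these 9, 3 were higher at E18 and the other 6 did not pass (median 0.47, but 0.22 without E18 replicate 1 and 0.19 without P5 replicate 8). Cdca7, which activates the remodeller HELLS, went from 4.33 ± 3.25 to 0.968 ± 0.102 CPM (2.16, adjusted p = 0.00749, edgeR), Zfp57, a zinc finger protein that protects methylation at imprinted loci, from 207.7 to 115.6 CPM (0.85), and its corepressor Trim28 by 0.52. Hells itself had a log2 fold change of 0.78 (adjusted p = 0.0596, edgeR). Both Cdca7 (8.05, 2.92 and 2.02 CPM) and Hells (14.9, 8.78 and 6.47 CPM) stood in E18 replicates 1, 3 and 4 in the order of the dividing-cell genes, whose part in these values was not tested.

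Downstream of the TET enzymes, 6 of 11 genes of base excision and its helpers were higher at E18 and 5 did not pass (median log2 fold change 0.53). Among them were Tdg, the glycosylase that removes the oxidised products (1.59 and 0.888 CPM; 0.84, adjusted p = 0.0332, edgeR), Gadd45a (0.86), Gadd45b (0.83), Parp1 (0.61), Apex1 (0.53) and Xrcc1 (0.30). The count fell to 3 without E18 replicate 1, E18 replicate 4 or P5 replicate 9. In the supply of cofactors to the TET enzymes, 7 genes split into 3 higher and 3 lower at E18, or 3 in all without E18 replicate 3. Idh2 (0.91), D2hgdh (0.75) and Idh1 (0.66; 750.8 and 473.8 CPM) were higher, and Idh3a (-1.19; 76.2 and 173.9 CPM) and Ogdh (-0.35) were among the lower genes. IDH1 and IDH2 make 2-oxoglutarate, the cosubstrate of the TET enzymes, with NADP. IDH3A belongs to the NAD-linked enzyme of the citric acid cycle, which makes 2-oxoglutarate as well.

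In the methyl donor cycle, which makes the S-adenosylmethionine used by all methyltransferases, 4 of 10 genes were higher at E18, 3 were lower and 3 did not pass (median log2 fold change 0.09). Shmt1 (1.08), Shmt2 (0.79) and Mat2a (0.53) were among the higher genes, and Mtr (-0.34), Mtrr (-0.33) and Mat2b (-0.29) were lower. The calls of this group fell to 3 without E18 replicate 1, when none of the lower genes passed, and to 4 without E18 replicate 3 or E18 replicate 4. Of 12 NuRD genes, 6 were higher at E18, 1 was lower and 5 did not pass (median 0.33). The count of higher NuRD genes fell to 4 without E18 replicate 3 or E18 replicate 4 and rose to 8 without P5 replicate 8. Gatad2b (0.87), Hdac2 (0.67) and Chd4 (0.59) were the higher genes with the largest differences, and Rbbp7 (-0.49) was the lower gene, as was Mbd2 itself.

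Of 12 germline genes whose promoters are methylated in somatic cells, 6 passed the filter on low counts and 6 did not. The sum over all 12 was 8.00 to 8.97 CPM at E18 and 6.82 to 8.74 CPM at P5. Ddx4 was higher at E18 (2.202 and 1.44 CPM; log2 fold change 0.62, adjusted p = 0.0474, edgeR) and Dazl lower (0.310 and 0.731 CPM; -1.24, adjusted p = 0.0262, edgeR), and 4 did not pass. The call of Ddx4 was lost with any single sample left out, and that of Dazl without E18 replicate 3, E18 replicate 4, P5 replicate 6 or P5 replicate 9. No methylation of DNA was measured in these samples, so transcript levels are the only readout of this pathway here.

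**Figure D5:**
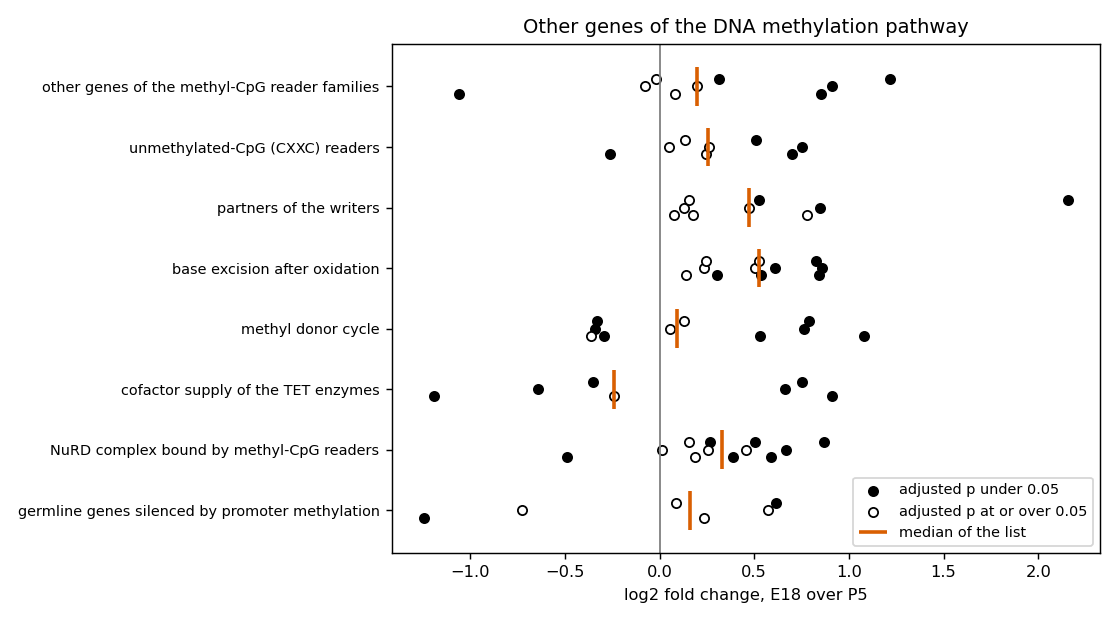
Log2 fold change (E18 over P5) of each tested gene in 8 groups that act with the members; filled points passed an adjusted p of 0.05, open points did not, and the orange line is the median of the group. Medians run from -0.24 for cofactor supply of the TET enzymes to 0.53 for base excision.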

How the data were processed

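RGC libraries (TruSeq with RiboZero Gold; labels give polyA RNA) were read as 100-base reads. The authors aligned them with STAR 2.4.0 and counted genes with HT-seq 0.6.1 against a RefSeq annotation (07.24.14). The submitters' notes also name CASAVA 1.8.2 and edgeR. The deposited unit used here is raw counts per gene. Deposited normalized values and the authors' own fold changes, p-values and ranks were not used.

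Counts of 3 E18 and 3 P5 samples were fitted in edgeR 4.0.16 (R 4.3.3; filterByExpr, TMM factors, quasi-likelihood F test, Benjamini-Hochberg adjustment over 16449 tested of 24060 genes, threshold 0.05). The standard error is the log2 fold change divided by the root of F. CPM use TMM-scaled library sizes. Alternatives were upper-quartile and DESeq2 size factors, DESeq2 1.42.0, edgeR's likelihood ratio and exact tests, limma 3.58.1 voom, no filter, a mean of at least 1 CPM, and each sample left out. Likeness used log2(CPM + 0.5). Lengths and positions came from GENCODE M21 (GRCm38), and sequences from RefSeq; none is shown for Mbd1 and Mbd2. Named genes are the members and, per list, up to 3 called genes with the largest change in each direction. Mbd3, Hells, Parp1, Apex1, Xrcc1, Mat2a and the single cell-type markers named were added after their values were seen. Some genes of the lists are not reported here by name. Members and lists were chosen with earlier results of these data known. Labels gave no batch. Intervals cover the spread between samples. Reads counted in genes came to 81213639 to 114512853 per sample.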

Additional observations from a re-analysis of the deposited data

How the results depend on the processing

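Dnmt1, Dnmt3a, Dnmt3b, Uhrf1 and Mbd2 kept their direction and their call under all 15 alternatives. Their log2 fold changes (E18 over P5) ranged from 0.49 to 0.56 for Dnmt1, -1.08 to -0.74 for Dnmt3a, 0.89 to 1.26 for Dnmt3b, 1.99 to 3.68 for Uhrf1 and -0.81 to -0.69 for Mbd2, with adjusted p of at most 0.0105, 0.0106, 0.0253, 0.0337 and 0.00653. The calls of Tet3, Tet1 and Mbd1 turned on single samples, and Tet2 passed under none of the alternatives. With each sample left out in turn, Tet3 ranged from 0.49 to 0.93 and lost its call in 4 of 6 fits, Tet1 from -0.31 to -0.17, Tet2 from -0.13 to 0.23 and Mbd1 from 0.045 to 0.37. Tet2 changed sign without E18 replicate 3 (-0.11), P5 replicate 6 (-0.13) or P5 replicate 9 (-0.01). Leaving out E18 replicate 3 and P5 replicate 8 together, a choice made after seeing the data, gave 0.89 for Tet3 (adjusted p = 0.00377) and 0.37 for Mbd1 (adjusted p = 0.0253). Over all genes, leaving out 1 sample gave 4575 genes (without E18 replicate 3) to 8796 genes (without P5 replicate 8) past the threshold in place of 7135, with 2137 to 4135 higher and 2438 to 4661 lower at E18; the cause was not tested. No scaling moved the median log2 fold change of all genes by more than 0.1. No paired analysis was possible because the ages share no replicate numbers.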
